A study of Mus musculus with 30 samples.

Results

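Over the third day of differentiation of mouse embryonic stem (ES) cells, RNA of several primitive streak and organiser genes rose, and in a narrower fit RNA of some pluripotency, epiblast and neural genes fell. The comparison sets EB day 3 against EB day 2 across all genes of the RNA-seq time course, where EB stands for embryoid body, the aggregate that ES cells form in suspension. It rests on 4 libraries, 2 of EB day 3 and 2 of EB day 2, out of 30 samples in the series. Both days came from E14Tg2a.IV, here E14, a wild-type ES line of 129/Ola origin grown with LIF and serum before EB formation. The treatment text shared by every sample of the series lists Activin A and SB431542, but the labels of these RNA libraries name neither agent. The study concerns p53, Wnt and TGF-β signals in mesendoderm, the common precursor of mesoderm and endoderm. The results describe a single cell line in culture, from pools of whole EBs.

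In the mouse embryo the primitive streak forms in the posterior epiblast, where cells leave the epithelium and become mesoderm and endoderm. Nodal and Wnt signals start the process, and the T-box factors T (brachyury) and Eomes are among the first streak regulators. Cells at the anterior end of the streak give rise to definitive endoderm and to the organiser, which secretes inhibitors of Nodal, Wnt and BMP. EBs pass through related states without the axes of an embryo.

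The deposited table held 23284 genes, each as a read count divided by 1 scaling factor per library, called the scaled count here. Whole reads recovered from it came to 30878512 and 20104644 in the EB day 3 libraries, against 31114239 and 33522251 in the EB day 2 libraries. The other 6 E14 libraries, 2 each of ES day 0, EB day 1 and EB day 4, entered only to estimate the spread and to place the third day among its neighbours. Whether the libraries of a day come from separate cultures is not stated, so a p-value here reflects only the spread between the samples at hand, which may be technical. The Spearman correlation between the libraries of a day was 0.990 at EB day 3 and 0.995 at EB day 2. The median absolute log2 difference between them was 0.258 at EB day 3, 0.176 at EB day 2 and 0.543 at ES day 0, the most variable of the 5 days.

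Sums of marker genes describe both days. They are no separate check of the day labels, because T, Mixl1, Evx1, Mesp1 and Foxa2 are also among the genes called below. The summed scaled count of 7 streak markers (T, Eomes, Mixl1, Evx1, Mesp1, Gsc and Foxa2) was 15056 and 21508 at EB day 3, against 1981 and 2410 at EB day 2. That of 5 epiblast markers (Fgf5, Otx2, Pou3f1, Dnmt3b and Pou5f1) was 120095 and 97954.5 at EB day 3, against 163636 and 143864 at EB day 2. Its largest member, Dnmt3b, had 69955 and 53701 at EB day 3, against 101150 and 88494 at EB day 2. Pou3f1 and Pou5f1 were also lower in both EB day 3 libraries, whereas Fgf5 was higher in both and Otx2 overlapped between the days. Naive ES cell markers (Zfp42, Esrrb, Klf4, Tfcp2l1 and Nr0b1) summed to 2763 and 2351 at EB day 3, against 4818 and 4048 at EB day 2. Markers of other cell types had lower sums than these on both days, though Thy1 of the fibroblast set had 530 and 666 at EB day 3 and 649 and 717 at EB day 2. Neuroectoderm markers (Sox1, Pax6, Zic1 and Rax) summed to 102 and 173 at EB day 3, against 288 and 373 at EB day 2, with Pax6 the largest member. Those of visceral endoderm summed to 71.5 and 78.6 at EB day 3 and to 112 and 84.4 at EB day 2, with its defining gene Afp at 0.954 and 1.46 at EB day 3 and at 0 in both EB day 2 libraries. Blood markers summed to 43.9 and 59.7 at EB day 3 and to 89.1 and 66.7 at EB day 2, with the embryonic globin genes Hba-x and Hbb-bh1 at 0 in all 4 libraries. Trophoblast markers summed to 214 and 367 at EB day 3, against 217 and 223 at EB day 2, and fibroblast markers to 724 and 1043, against 937 and 1020. In such bulk samples fewer cells of a type and less RNA per cell cannot be told apart.

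In the limma fit of all 5 days, 21 of 15841 genes tested were higher at EB day 3 than at EB day 2 at a Benjamini-Hochberg adjusted p under 0.05, which is 0.133% of the genes, and 0 were lower. At an unadjusted p under 0.05 limma counted 722 genes higher (4.56%) and 918 lower (5.8%), and edgeR on the recovered reads 785 and 837. After adjustment edgeR found 24 higher and 0 lower, and DESeq2 173 higher and 142 lower. A limma fit of EB days 1 to 4, which leaves out the ES day 0 libraries and is called the EB-only fit here, placed 117 genes higher (0.744% of 15724) and 95 lower (0.604%), and its higher genes included all 21. Both fits give the same fold change for a gene and differ in the spread that they set it against. Across all genes the median log2 fold change was -0.01, with both EB day 3 libraries above both EB day 2 libraries for 4224 genes (26.7%) and below them for 4434 (28%). The fold change was above 0 for 7805 genes and below 0 for 8029. At these shares a short list holds few or no calls, so a list below without a call is no result about its members.

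How many genes were called depended on single libraries. The 5-day fit counted 16 higher and 1 lower without EB day 3 replicate 1, and 1 higher and 0 lower without EB day 3 replicate 2. It counted 2 higher without EB day 2 replicate 1 and 3 without EB day 2 replicate 2, with 0 lower in both. Without ES day 0 replicate 1 the counts were 112 higher and 104 lower, and without ES day 0 replicate 2 they were 114 and 103. Leaving out either EB day 1 library gave 11 higher, and leaving out EB day 4 replicate 1 or 2 gave 3 and 7, with 0 lower each time. With the replicate number as a block 16 genes were higher and 3 lower, and Evx1, Sp5, Aplnr, Rhoj, Samd3 and Sh3pxd2a lost their call. Mixl1 was called under all 22 alternatives tried and T under 21 of them.

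**Figure D1:**
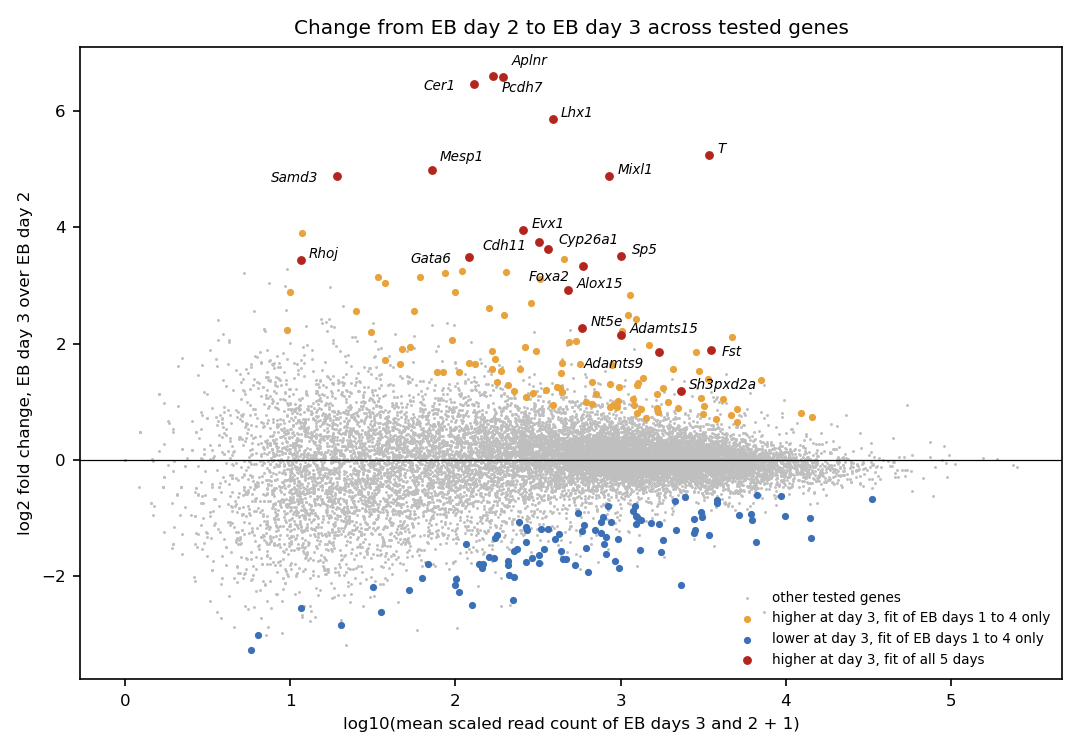
Each point is 1 of the 15841 genes tested. The x axis is log10 of the mean scaled count of EB days 3 and 2 plus 1, and the y axis is the log2 fold change of EB day 3 over EB day 2. Red points are the 21 genes called higher in the 5-day fit, with T the most abundant of those that exceed a log2 fold change of 4, and orange and blue points were called higher and lower only in the EB-only fit.

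Several primitive streak genes rose. Of 15 list members tested, 5 were called higher in the 5-day fit (T, Mixl1, Evx1, Sp5 and Mesp1), against 0.133% of all genes. The EB-only fit called 8 higher, adding Eomes, Fgf8 and Wnt3, against 0.744% of all genes. No member was called lower in either fit, 14 of the 15 had a fold change above 0, and their median log2 fold change was 1.66 against -0.01 over all genes. The list was chosen with earlier results of these data known, so its direction is a description.

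The T-box factor T had 5034 and 8310 scaled counts at EB day 3, against 123 and 236 at EB day 2. Both EB day 3 libraries stood far above both EB day 2 libraries, a log2 fold change of 5.23 ± 0.40 (SE; limma adjusted p = 0.0011). Mixl1, a homeobox factor of the streak, had 1345 and 1960 at EB day 3, against 52.8 and 56.0 at EB day 2. That is a log2 fold change of 4.87 ± 0.31, with the lowest adjusted p of the comparison, 3.3e-04 by limma. Evx1, a homeobox factor of the posterior streak, had 347 and 619 at EB day 3, against 21.5 and 39.1 at EB day 2 (log2 fold change 3.95 ± 0.56, limma adjusted p = 0.031). Sp5, a zinc finger factor and target of Wnt signalling, had 1372 and 2332 at EB day 3, against 128 and 192 at EB day 2. That was a log2 fold change of 3.50 ± 0.48 (limma adjusted p = 0.031). Neither Evx1 nor Sp5 was called with the replicate number as a block.

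Mesp1, a basic helix-loop-helix factor of the earliest mesoderm, was nearly silent at EB day 2, with 1 and 5 reads. It had 45.8 and 232 scaled counts at EB day 3, against 0.979 and 4.44 at EB day 2. The EB day 3 libraries differed widely from each other, and both were above EB day 2. The ratio of its pooled reads, corrected for library scaling, was 42.7, with a 95% exact counting interval of 19.3 to 118. The limma adjusted p was 0.037, and the fitted fold change of so low a gene depends on the pseudocount. Such an interval pools the libraries of a day, so it covers counting error only and leaves out the spread between them. PCR copies of 1 molecule are counted as separate reads, so it may be too narrow even for counting error. The same holds for the counting intervals of the genes below.

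Eomes, Fgf8 and Wnt3 missed the threshold in the 5-day fit and passed it in the EB-only fit. Eomes, already expressed the day before, had 6645 and 8719 scaled counts at EB day 3, against 1625 and 1887 at EB day 2. Its log2 fold change was 2.12, with a limma adjusted p of 0.099 in the 5-day fit and 0.000548 in the EB-only fit (2.5e-27 to 1 over all alternatives). Fgf8, a growth factor of the streak that mesoderm cells need to migrate, had 4484 and 4449 at EB day 3, against 1149 and 1321 at EB day 2. The libraries of each day were close together, and the adjusted p was 0.000592 in the EB-only fit and 0.582 in the 5-day fit (1.46e-25 to 1 over all alternatives). Wnt3, the ligand without which the streak does not form, had 858 and 862 at EB day 3, against 269 and 276 at EB day 2. The log2 fold change of 1.66 had an adjusted p of 0.00313 in the EB-only fit and 0.166 in the 5-day fit (2.51e-12 to 1 over all alternatives).

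Promoter sequence was read for the genes that rose together, from 250 bases before to 50 after the first listed start, as given by RefSeq on GRCm38.p6. Of the 21 genes called higher, 13 had an entry, as did 12339 of all genes tested. The Tcf/Lef motif CTTTGAT, sought on both strands, was in 2 of the 13 (15.4%), against 2.56% of all promoters. The short Smad motif GTCTG was in 10 (76.9%), against 48.0% of all, and the T-box motif GGTGTGA in 2 (15.4%), against 3.61%. The FoxH1 motif ATCCACA was in 0 of the 13, against 2.27% of all promoters, and a p53 motif in 2 (15.4%), against 6.95%. Over the 90 higher genes of the EB-only fit with an entry the shares were 4.44% for Tcf/Lef, 52.2% for Smad, 4.44% for T-box, 2.22% for FoxH1 and 7.78% for p53. Over its 61 lower genes they were 1.64% for Tcf/Lef, 42.6% for Smad, 6.56% for T-box, 0% for FoxH1 and 8.2% for p53. A match is a description of the letters and not a site. Sp5 and Mesp1 are shown because they hold the Tcf/Lef motif, and T and Evx1 because they are called streak genes in which these letters are not in this window. Capitals mark matches of any of the motifs.
Sp5: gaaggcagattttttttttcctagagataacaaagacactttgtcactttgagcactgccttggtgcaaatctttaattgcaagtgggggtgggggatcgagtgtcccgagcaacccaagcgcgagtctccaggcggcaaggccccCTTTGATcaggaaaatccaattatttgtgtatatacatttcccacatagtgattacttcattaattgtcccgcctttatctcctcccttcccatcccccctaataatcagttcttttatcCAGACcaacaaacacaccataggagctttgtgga
Mesp1: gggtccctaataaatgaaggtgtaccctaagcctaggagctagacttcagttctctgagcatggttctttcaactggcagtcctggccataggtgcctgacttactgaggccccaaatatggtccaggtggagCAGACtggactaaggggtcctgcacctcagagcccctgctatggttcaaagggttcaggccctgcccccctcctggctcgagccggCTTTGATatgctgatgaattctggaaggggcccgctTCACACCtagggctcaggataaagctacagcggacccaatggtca
T: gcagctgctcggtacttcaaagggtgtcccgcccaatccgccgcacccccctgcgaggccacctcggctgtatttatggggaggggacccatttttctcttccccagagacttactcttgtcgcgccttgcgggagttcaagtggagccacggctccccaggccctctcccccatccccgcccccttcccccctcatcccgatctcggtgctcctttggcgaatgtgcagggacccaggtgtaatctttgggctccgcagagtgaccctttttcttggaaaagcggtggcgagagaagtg
Evx1: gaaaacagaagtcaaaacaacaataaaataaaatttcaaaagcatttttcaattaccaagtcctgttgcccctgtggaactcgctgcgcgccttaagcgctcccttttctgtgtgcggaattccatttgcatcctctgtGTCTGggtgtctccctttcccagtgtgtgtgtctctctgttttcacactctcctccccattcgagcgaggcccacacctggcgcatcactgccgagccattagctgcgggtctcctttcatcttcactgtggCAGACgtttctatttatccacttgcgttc

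The Sp5 window is chr2:70474673-70474972 on the plus strand, with the Tcf/Lef motif at -104 to -98 relative to the start. The Mesp1 window is chr7:79793541-79793840 on the minus strand, with the Tcf/Lef motif at -31 to -25 and the T-box motif at 5 to 11. The T window is chr17:8434173-8434472 and that of Evx1 chr6:52313248-52313547, both on the plus strand. T held none of the motifs, and Evx1 held the Smad motif at -111 to -107 and at 21 to 25.

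**Figure D2:**
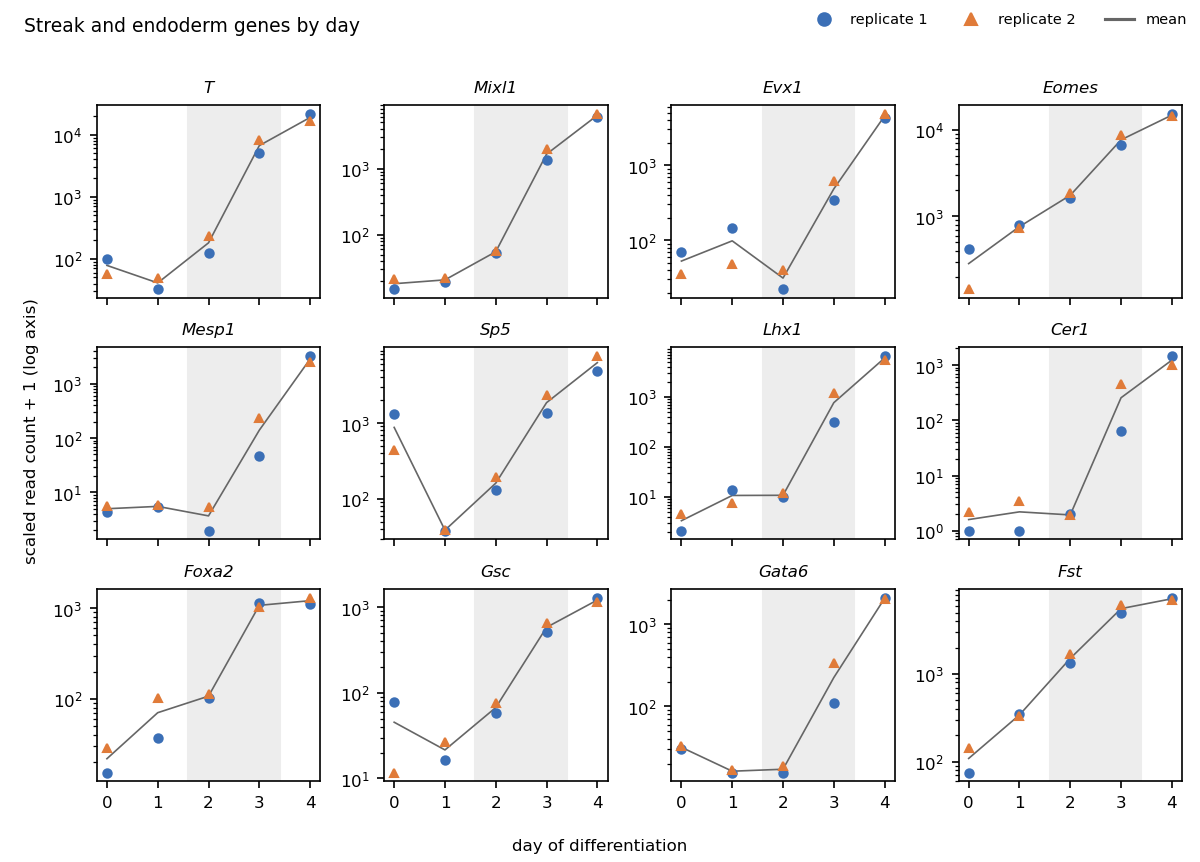
Scaled count plus 1 of 12 streak, organiser and endoderm genes on a log axis against the day of differentiation, 0 to 4. Circles are replicate 1, triangles replicate 2, lines the mean of the 2 libraries, and the grey band marks EB days 2 and 3. T has 5034 and 8310 scaled counts at EB day 3, against 123 and 236 at EB day 2, and the other genes are higher at EB day 3 as well.

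Several anterior streak and organiser genes rose as well. Of 12 tested, 3 were called higher in the 5-day fit (Lhx1, Cer1 and Foxa2) and 5 in the EB-only fit, which added Gsc and Frzb, with 0 lower in both. All 12 fold changes were above 0, with a median log2 of 1.73. At an unadjusted p under 0.05 limma counted 8 of them higher and 0 lower, against 4.56% and 5.8% of all genes. Lhx1, a LIM homeobox factor of the organiser, had 313 and 1216 scaled counts at EB day 3, against 8.81 and 10.7 at EB day 2 (log2 fold change 5.85 ± 0.64, limma adjusted p = 0.010). Foxa2, a forkhead factor of endoderm and axial mesoderm, had 1129 and 1021 at EB day 3, against 99.8 and 112 at EB day 2. It rose by 3.33 ± 0.47 on the log2 scale (limma adjusted p = 0.031), and it was the only one of the 21 genes that was lower in EB day 3 replicate 2 than in replicate 1.

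Cer1, a secreted inhibitor of Nodal, BMP and Wnt ligands, had 63.9 and 446 scaled counts at EB day 3, against 0.979 and 0.889 at EB day 2, which is 1 read in each EB day 2 library. The ratio of pooled reads was 231, with a 95% counting interval of 63.4 to 1912, and the limma adjusted p was 0.031. The organiser homeobox gene Gsc had 510 and 647 at EB day 3, against 57.7 and 74.7 at EB day 2. It passed in the EB-only fit (log2 fold change 3.11 ± 0.29, limma adjusted p = 0.00176, and 1.48e-24 to 1 over all alternatives) and had an adjusted p of 0.172 in the 5-day fit. Frzb, a secreted Wnt antagonist, had 165 and 514 at EB day 3, against 38.2 and 67.6 at EB day 2. Chrd, a BMP antagonist, had 489 and 613 at EB day 3, against 192 and 249 at EB day 2, and passed in neither fit.

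Endoderm and mesoderm lists each held a few strong risers beside a median near 0, and without EB day 3 replicate 2 that median was -0.14 for definitive endoderm and -0.06 for mesoderm. Of 12 definitive endoderm genes, Foxa2 and Gata6 were called higher in both fits, Prdm1 was called lower in the EB-only fit, and the median log2 fold change was 0.08. Gata6, a zinc finger factor of endoderm, had 110 and 338 scaled counts at EB day 3, against 14.7 and 17.8 at EB day 2 (log2 fold change 3.50 ± 0.48, limma adjusted p = 0.031). Sox17, which specifies definitive endoderm, had 25.7 and 119 at EB day 3, against 13.7 and 9.78 at EB day 2. Both EB day 3 values were above EB day 2 but far apart, and the adjusted p was 0.310 by limma. Prdm1, a transcriptional repressor with roles in germ cells and endoderm, had 153 and 160 at EB day 3, against 345 and 310 at EB day 2.

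Of 21 mesoderm genes, Aplnr was called higher in the 5-day fit, and Aplnr and Pdgfra in the EB-only fit, with a median log2 fold change of 0.11. Aplnr, the apelin receptor, had 126 and 642 scaled counts at EB day 3, against 0.979 and 3.56 at EB day 2, or 1 and 4 reads. The ratio of pooled reads was 142, with a 95% counting interval of 60.4 to 438, and the limma adjusted p was 0.031. With the replicate number as a block Aplnr was not called. Apln, the gene of its ligand, had 1841 and 2332 at EB day 3, against 301 and 494 at EB day 2, and rose in the EB-only fit. Pdgfra, a growth factor receptor of nascent mesoderm, had 141 and 224 at EB day 3, against 62.6 and 48.9 at EB day 2. Kdr, a receptor for VEGF on vascular precursors, had 210 and 269 at EB day 3, against 68.5 and 104 at EB day 2, and passed in neither fit.

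Lists of later fates were mostly below the threshold. Of 14 cardiac genes, Actc1, cardiac muscle actin, was called higher in the EB-only fit, with 119 and 230 scaled counts at EB day 3 against 22.5 and 20.4 at EB day 2, and the median log2 fold change was -0.35. None of 17 blood and endothelial genes was called in the 5-day or EB-only fit. At an unadjusted p under 0.05 the 5-day fit counted 3 higher and 2 lower, against 4.56% and 5.8% of all genes. Flt1, another VEGF receptor, had 1716 and 2070 at EB day 3, against 399 and 631 at EB day 2, without passing in either fit.

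Others of the 21 genes have varied roles. Pcdh7, a protocadherin, had 234 and 433 scaled counts at EB day 3, against 0.979 and 4.44 at EB day 2, where it had 1 and 5 reads. Its ratio of pooled reads was 112, with a 95% counting interval of 51.0 to 306 (limma adjusted p = 0.0094). Cdh11, a cadherin of mesenchymal cells, had 427 and 768 at EB day 3, against 35.2 and 48.9 at EB day 2 (log2 fold change 3.75 ± 0.42, limma adjusted p = 0.010). Cyp26a1, which degrades retinoic acid, had 381 and 966 at EB day 3, against 50.9 and 45.3 at EB day 2 (log2 fold change 3.63 ± 0.41, limma adjusted p = 0.010). Nt5e, a cell surface enzyme that makes adenosine, had 881 and 1053 at EB day 3, against 166 and 236 at EB day 2 (log2 fold change 2.27 ± 0.25, limma adjusted p = 0.010). The days of these 4 genes did not overlap, but the rule for the largest changes required this. Both EB day 3 libraries were above both EB day 2 libraries for 26.7% of all genes. Alox15, a lipoxygenase, had 677 and 1028 at EB day 3, against 106 and 112 at EB day 2, a log2 fold change of 2.93 ± 0.37.

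Another 5 genes are named to complete the 21 and were chosen after their values were seen. The secreted metalloprotease Adamts15 had 1277 and 2033 scaled counts at EB day 3, against 334 and 397 at EB day 2. Adamts9, of the same family, had 2292 and 3053 at EB day 3, against 756 and 700 at EB day 2. Sh3pxd2a, a scaffold of matrix-degrading cell protrusions, had 2985 and 3469 at EB day 3, against 1267 and 1569 at EB day 2, the smallest log2 fold change of the 21 at 1.19 ± 0.17. Rhoj, a small GTPase, had 17.2 and 23.3 at EB day 3, against 0.979 and 0.889 at EB day 2, 1 read in each. Samd3 had 13.4 and 59.7 at EB day 3 and no read at EB day 2. Set against a floor of 3 reads per EB day 2 library, the mean of its EB day 3 libraries was 13.0-fold higher, with replicate 1 well below that mean. Samd3 was not called by edgeR on all days. With the replicate number as a block Rhoj, Samd3 and Sh3pxd2a were not called.

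Among signalling genes, some Wnt ligands rose. Of 17 Wnt ligand genes 0 were called in the 5-day fit. At an unadjusted p under 0.05 it counted 4 higher and 1 lower, against 4.56% and 5.8% of all genes. Wnt3, Wnt5b and Wnt11 were called higher in the EB-only fit, against 0.744% of all genes. The list's median log2 fold change was 0.63. Wnt11, a target of streak factors that acts in cell movement, had 314 and 234 scaled counts at EB day 3, against 34.3 and 55.1 at EB day 2. Wnt5b had 276 and 348 at EB day 3, against 124 and 149 at EB day 2. Wnt8a, also a streak ligand, had 2735 and 2646 at EB day 3, against 2115 and 2158 at EB day 2, and was called in neither fit. No Wnt receptor gene of 17 was called in the 5-day or EB-only fit, with 1 higher and 0 lower at an unadjusted p under 0.05 in the 5-day fit. Fzd1 had 259 and 317 at EB day 3, against 125 and 168 at EB day 2.

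Of 22 Wnt targets and modulators, Sp5 was called higher in the 5-day fit and Sp5 and Frzb in the EB-only fit. Axin2, a negative regulator and common readout of the pathway, had 2432 and 2852 scaled counts at EB day 3, against 1573 and 1644 at EB day 2. Its log2 fold change of 0.71 ± 0.21 passed in neither fit (limma adjusted p = 0.282 in the 5-day fit). Among the 5 Tcf/Lef and β-catenin genes none was called in the 5-day or EB-only fit. At an unadjusted p under 0.05 the 5-day fit counted 0 higher and 1 lower, against 4.56% and 5.8% of all genes. Tcf7l1, the pathway's main repressor in ES cells, often called Tcf3, had 1885 and 1911 at EB day 3, against 3184 and 2599 at EB day 2.

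Of 19 Nodal pathway genes, none was called in the 5-day fit. At an unadjusted p under 0.05 it counted 4 higher and 3 lower, against 4.56% and 5.8% of all genes. The EB-only fit called Furin, a protease that matures Nodal, higher and the ligand Gdf3 and the inhibitor Lefty2 lower. Nodal itself had 3378 and 2597 scaled counts at EB day 3, against 4716 and 3877 at EB day 2, a log2 fold change of -0.53 that passed in neither fit. Lefty1, a secreted Nodal inhibitor, had 3672 and 1121 at EB day 3, against 13026 and 11947 at EB day 2. Its EB day 3 libraries were far apart but both well below EB day 2, and the log2 fold change of -2.62 ± 0.85 passed in neither fit (limma adjusted p = 0.333 in the 5-day fit). Lefty2 had 2111 and 1336 at EB day 3, against 4368 and 3455 at EB day 2. Gdf3 had 476 and 386 at EB day 3, against 1181 and 1148 at EB day 2.

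Fst, the activin-binding antagonist follistatin, was the only called member of 7 activin and follistatin genes. It had 4993 and 6147 scaled counts at EB day 3, against 1316 and 1691 at EB day 2 (log2 fold change 1.89 ± 0.28, limma adjusted p = 0.044). Of 23 BMP pathway genes, the ligand Bmp2 was called higher in the EB-only fit, with 31.5 and 52.4 at EB day 3 against 6.85 and 5.33 at EB day 2. The list had a median log2 fold change of 0.02. Of 14 FGF genes the EB-only fit called Fgf8 and Fgf10 higher and Fgf4 and Fgf15 lower, against 0.744% and 0.604% of all genes. The list's median was 0.00. Fgf10 had 79.2 and 111 at EB day 3, against 12.7 and 17.8 at EB day 2, and Fgf15 had 669 and 663 at EB day 3, against 2085 and 1820 at EB day 2. Of 18 ephrin and Eph receptor genes, which control cell sorting, Epha1, Epha7 and Efna1 were called higher in the EB-only fit, against 0.744% of all genes. Epha1 had 10350 and 10142 at EB day 3, against 3665 and 4271 at EB day 2.

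Of 19 genes of the epithelial-mesenchymal transition, Cdh11 was called higher in the 5-day fit and Cdh11 and Snai1 in the EB-only fit, with 0 lower in both and a median log2 fold change of 0.46. Snai1, a repressor of epithelial genes in the streak, had 439 and 549 scaled counts at EB day 3, against 208 and 216 at EB day 2. E-cadherin, Cdh1, had 23457 and 25686 at EB day 3, against 25994 and 27164 at EB day 2, a log2 fold change of -0.11 that passed in neither fit. N-cadherin, Cdh2, had 1117 and 1697 at EB day 3, against 888 and 804 at EB day 2, also without passing in either fit. Only 1 of 22 alternatives, DESeq2 on EB days 2 and 3 alone, called Cdh2 higher (adjusted p = 0.0229). That setting was added after seeing the data and called 566 genes higher and 478 lower. A pair of genes outside the lists, Tagln, an actin-binding protein, and Acta1, skeletal muscle actin, were called higher in the EB-only fit and chosen after their values were seen. Tagln had 1159 and 2677 at EB day 3, against 279 and 350 at EB day 2, and Acta1 had 89.6 and 312, against 13.7 and 20.4.

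**Figure D3:**
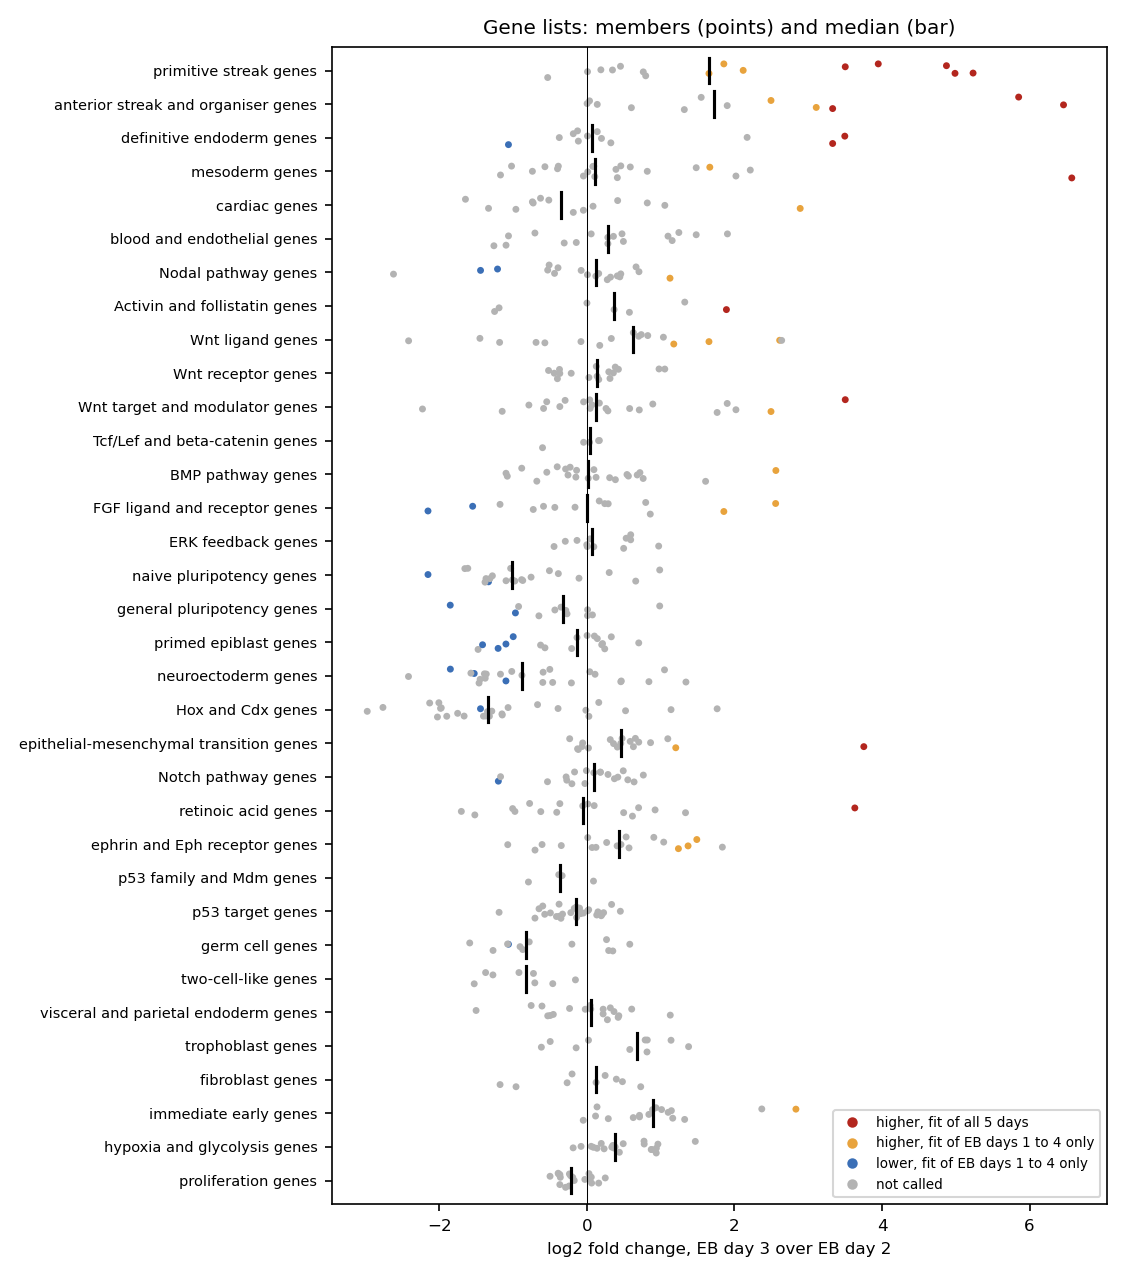
Each row is 1 of 34 gene lists, each point a tested member, and the black bar the list's median; the x axis is the log2 fold change of EB day 3 over EB day 2. Colours give the calls in the 5-day and EB-only fits, and the streak and organiser lists have the highest medians, 1.66 and 1.73.

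Most naive pluripotency genes had a fold change below 0, and few passed a test. No naive pluripotency gene of 21 was called in the 5-day fit, and the EB-only fit called Fgf4 and Dppa5a lower, against 0.604% of all genes. At an unadjusted p under 0.05 the 5-day fit counted 1 higher and 12 lower, against 4.56% and 5.8% of all genes. The fold changes of 18 of the 21 were below 0, 16 had both EB day 3 libraries below both EB day 2 libraries against 28% of all genes, and the median log2 was -1.01. Fgf4, a growth factor of ES cells, had 1207 and 565 scaled counts at EB day 3, against 4709 and 2867 at EB day 2. Its log2 fold change was -2.15 ± 0.36, with a limma adjusted p of 0.0288 in the EB-only fit and 0.079 in the 5-day fit (2.0e-05 to 0.940 over all alternatives). Dppa5a, an RNA-binding protein of pluripotent cells, had 10074 and 6313 at EB day 3, against 23633 and 17059 at EB day 2. Zfp42 (Rex1), a marker of the naive state, had 757 and 530 at EB day 3, against 1496 and 1038 at EB day 2. It passed in neither fit and was called lower in 1 of 22 alternatives, DESeq2 on EB days 2 and 3 alone (adjusted p = 0.00259), which was added after seeing the data.

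Nanog was an exception among them. It had 647 and 769 scaled counts at EB day 3, against 333 and 379 at EB day 2, and both EB day 3 values were above EB day 2. Its log2 fold change of 0.99 ± 0.27 passed in neither the 5-day nor the EB-only fit (adjusted p = 0.256 in the 5-day fit) and passed in DESeq2 on all days (adjusted p = 0.0344; 0.000554 to 1 over all alternatives). Of 12 general pluripotency genes, Dppa2 and Utf1 were called lower in the EB-only fit, against 0.604% of all genes. The list's median log2 fold change was -0.32. Dppa2, a chromatin factor of pluripotent and germ cells, had 598 and 288 at EB day 3, against 1786 and 1260 at EB day 2. Utf1 had 6384 and 6995 at EB day 3, against 14335 and 11906 at EB day 2. Pou5f1 (Oct4) had 36930 and 29149 at EB day 3, against 41155 and 37910 at EB day 2, and Sox2 had 4999 and 6190, against 9369 and 8120. Neither was called in the 5-day or EB-only fit. Sox2 was called lower in 1 of 22 alternatives, DESeq2 on EB days 2 and 3 alone (adjusted p = 0.00639), added after seeing the data.

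Epiblast genes were divided. Of 17 primed epiblast genes the EB-only fit called Pou3f1, Foxd3, Sox3 and Dnmt3a lower, against 0.604% of all genes, and none higher. The 5-day fit called none. At an unadjusted p under 0.05 it counted 0 higher and 5 lower, against 4.56% and 5.8% of all genes. The list's median log2 fold change was -0.13. Pou3f1 (Oct6), a POU factor of the epiblast and early neural plate, had 3580 and 3548 scaled counts at EB day 3, against 11463 and 7852 at EB day 2 (log2 fold change -1.41 ± 0.24 in the EB-only fit). Foxd3, a forkhead repressor, had 1333 and 1282 at EB day 3, against 3454 and 2620 at EB day 2. Dnmt3a, a DNA methyltransferase, had 9871 and 8722 at EB day 3, against 22298 and 15380 at EB day 2. Fgf5, the usual marker of the primed epiblast, had 4749 and 5568 at EB day 3, against 4295 and 4395 at EB day 2, a difference of 0.24 on the log2 scale that passed in neither fit.

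Some neural genes were lower at EB day 3. Of 25 neuroectoderm genes the EB-only fit called Pax6, Neurod1 and Sox3 lower, against 0.604% of all genes, and none higher. The 5-day fit called none. At an unadjusted p under 0.05 it counted 1 higher and 10 lower, against 4.56% and 5.8% of all genes. The list's median log2 fold change was -0.88. Pax6, a paired box factor of the neural tube and eye, had 52.5 and 72.8 scaled counts at EB day 3, against 205 and 248 at EB day 2. Neurod1, a proneural factor, had 151 and 93.2 at EB day 3, against 390 and 302 at EB day 2. Sox3, of epiblast and neural progenitors, had 715 and 861 at EB day 3, against 1670 and 1686 at EB day 2. Sox1, the earliest neural plate marker, was low throughout, with 5.72 and 45.1 at EB day 3 and 24.5 and 26.7 at EB day 2, so its days overlapped.

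Of 27 Hox and Cdx genes tested, none was called in the 5-day fit and Hoxb1 alone was called, lower, in the EB-only fit. At an unadjusted p under 0.05 the 5-day fit counted 2 higher and 11 lower, against 4.56% and 5.8% of all genes. Of the 27, 22 had a fold change below 0, and the median log2 was -1.35. No member of this list exceeded a scaled count of 235 in the 4 libraries. Hoxb1 had 58.2 and 65.5 at EB day 3, against 177 and 162 at EB day 2. Hoxb4 had 6.68 and 8.74 at EB day 3, against 40.1 and 33.8 at EB day 2, and passed in neither fit. Cdx1 and Cdx2, posterior factors that are targets of Wnt, stood on the other side. Cdx1 had 38.1 and 59.7 at EB day 3, against 11.7 and 15.1 at EB day 2, and Cdx2 had 87.7 and 159, against 50.9 and 55.1. Neither was called in the 5-day or EB-only fit, and 1 of 21 alternatives, DESeq2 on all days, called Cdx1 higher (adjusted p = 0.0208). The Notch ligand Dll1 was called lower in the EB-only fit, with 378 and 469 at EB day 3 against 1003 and 932 at EB day 2.

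**Figure D4:**
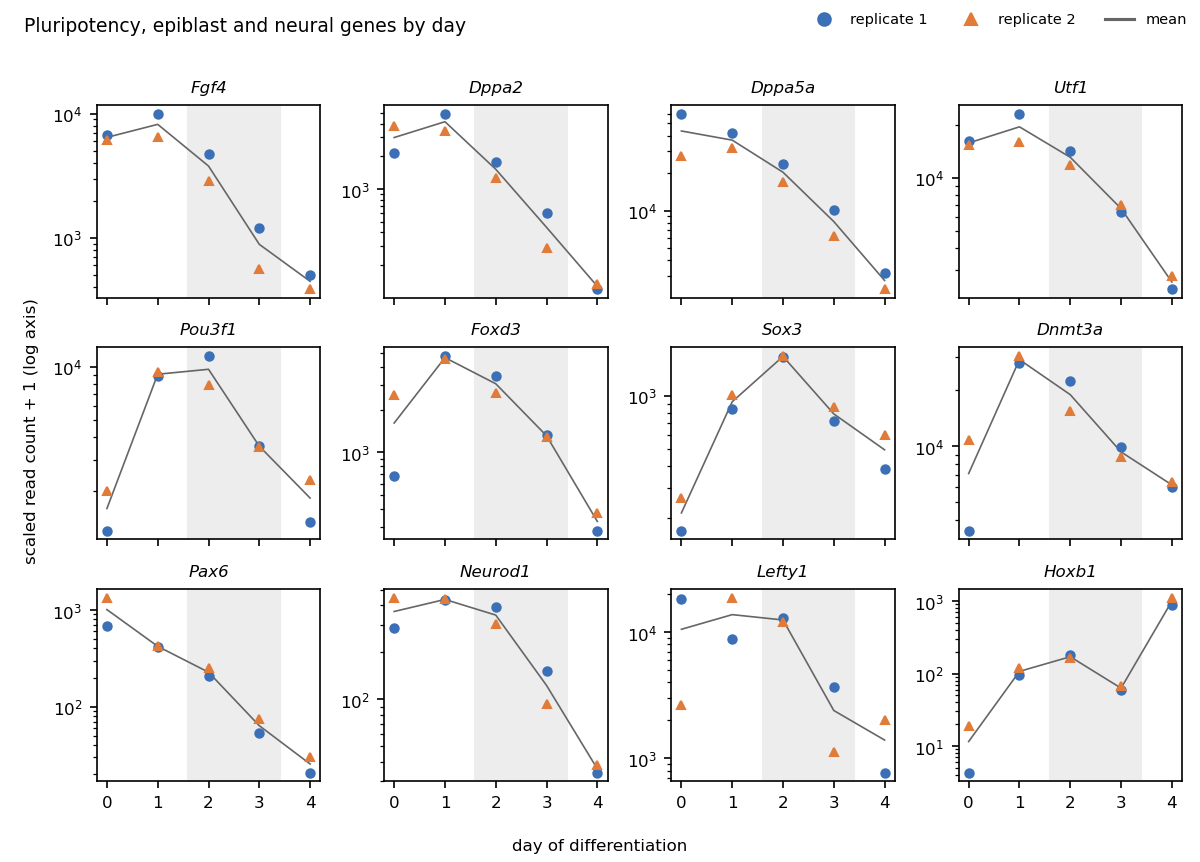
Scaled count plus 1 of 12 pluripotency, epiblast and neural genes on a log axis against the day of differentiation, 0 to 4, with circles for replicate 1, triangles for replicate 2, lines for the mean and a grey band on EB days 2 and 3. Pou3f1 and Sox3 have their highest mean at EB day 2 and are lower at EB day 3, Lefty1 (called in neither the 5-day nor the EB-only fit) has widely spaced EB day 3 libraries, and Hoxb1 is lower at EB day 3 than at EB day 2.

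No tested member of the p53 family, the subject of the wider study, was called in the 5-day or EB-only fit. Trp53 had 7259 and 8029 scaled counts at EB day 3, against 10656 and 9261 at EB day 2, a log2 fold change of -0.38 ± 0.18 (limma adjusted p = 0.509). Trp73 had 572 and 472 at EB day 3, against 902 and 897 at EB day 2. It was called lower in 1 of 22 alternatives, DESeq2 on EB days 2 and 3 alone (adjusted p = 0.00526), added after seeing the data. Trp63 was too low to be tested, with 3.81 and 4.37 at EB day 3 and 2.94 and 1.78 at EB day 2. Mdm2, the ubiquitin ligase that degrades p53, had 3598 and 3481 at EB day 3, against 4333 and 4595 at EB day 2. None of 28 p53 target genes was called in the 5-day or EB-only fit, and their median log2 fold change was -0.14. At an unadjusted p under 0.05 limma counted 0 higher and 2 lower, against 4.56% and 5.8% of all genes. Over all genes 0.133% were called in the 5-day fit, and 0.744% higher and 0.604% lower in the EB-only fit. A list of this size would hold few or no calls at those shares. Cdkn1a (p21) had 2242 and 1513 at EB day 3, against 1756 and 1865 at EB day 2, and its days overlapped.

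Several lists outside the germ layers had medians away from 0 with few or no calls. For comparison, 7805 of all genes tested had a fold change above 0 and 8029 below. At an unadjusted p under 0.05 the 5-day fit counted 4.56% of all genes higher and 5.8% lower. Of 17 immediate early genes 16 had a fold change above 0, with a median log2 of 0.89, and Cyr61, a secreted matrix protein induced by growth factors, was called higher in the EB-only fit. It had 1343 and 2691 scaled counts at EB day 3, against 218 and 324 at EB day 2. Of 21 hypoxia and glycolysis genes 19 had a fold change above 0, with a median of 0.38 and none called in the 5-day or EB-only fit (4 higher and 0 lower at an unadjusted p under 0.05). Ndrg1, induced by hypoxia, had 6209 and 6530 at EB day 3, against 1791 and 2947 at EB day 2. All 8 two-cell-like genes had a fold change below 0, with a median of -0.82 and none called in the 5-day or EB-only fit (0 higher and 2 lower at an unadjusted p under 0.05), and in all 8 EB day 3 replicate 2 was below replicate 1. Germ cell genes had a median of -0.82, with Prdm1 called lower in the EB-only fit, and proliferation genes -0.22, with none called in the 5-day or EB-only fit (0 higher and 3 lower at an unadjusted p under 0.05).

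The remaining medians of the 34 lists are given here, and several lay close to 0. The median log2 fold change was 0.44 for ephrin and Eph receptor genes, 0.37 for activin and follistatin genes, 0.12 for Wnt targets and modulators, 0.12 for Nodal pathway genes and 0.14 for Wnt receptors. It was 0.29 for blood and endothelial genes, 0.10 for Notch pathway genes, 0.04 for Tcf/Lef and β-catenin genes, -0.05 for retinoic acid genes, where Cyp26a1 alone was called in both fits, and -0.36 for the p53 family and Mdm genes. The 12 ERK feedback genes had a median of 0.07 with none called in the 5-day or EB-only fit. Against 4.56% and 5.8% of all genes, 4 of the 12 were higher and 1 lower at an unadjusted p under 0.05. Among them Dusp6, a phosphatase that limits ERK activity, had 5146 and 5692 scaled counts at EB day 3, against 3169 and 2394 at EB day 2. Of tissues outside the epiblast, the 19 genes tested from visceral and parietal endoderm had a list median of 0.05 (2 higher and 0 lower at an unadjusted p under 0.05), 10 trophoblast genes 0.69 (2 and 0) and 9 fibroblast genes 0.13 (0 and 1), with none called in the 5-day or EB-only fit. Krt8, a keratin of the trophoblast list that other simple epithelia also express, had 1129 and 1972 at EB day 3, against 542 and 605 at EB day 2.

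Fasn, Fdft1, Cdkn1c and Piwil1 are single genes outside the lists that were called lower in the EB-only fit and chosen after their values were seen. Fasn, the fatty acid synthase, had 26627 and 24571 scaled counts at EB day 3, against 42375 and 39429 at EB day 2. Fdft1, the squalene synthase, had 2768 and 2946 at EB day 3, against 4608 and 4986 at EB day 2. The cell cycle inhibitor Cdkn1c had 1123 and 1025 at EB day 3, against 2549 and 2098 at EB day 2. Piwil1, an Argonaute family protein of the germ line, had 55.3 and 23.3 at EB day 3, against 248 and 172 at EB day 2. By the naming rule, the falls with the 5 smallest p-values were Palm3, Fgf4, Proc, Hhip and Pipox. The EB-only fit called each of them lower and the 5-day fit none. Palm3 had 598 and 485 at EB day 3, against 1456 and 1301 at EB day 2, and Pipox 866 and 810, against 1839 and 1492. Hhip had 5.72 and 13.1, against 67.5 and 50.7, and Proc 0 and 0, against 13.7 and 5.33.

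The libraries of a day differed from each other in some of the genes described above. In 20 of the 21 called genes EB day 3 replicate 2 was above replicate 1, by a median of 0.76 on the log2 scale, against 0.01 over all genes. In the 100 genes that rose most between EB day 2 and EB day 4, replicate 2 was above replicate 1 in 88, by a median of 0.97. In the 100 that fell most it was below in 86, with a median of -0.73. Across 15841 genes this difference had a Pearson correlation of 0.37 and a Spearman correlation of 0.34 with the change of EB day 4 over EB day 2, which uses no EB day 3 library. The EB day 2 libraries showed part of the same pattern. Their replicate 2 was above replicate 1 in 16 of the 21 called genes and below in 4, by a median of 0.26, above in 46 of the 100 largest rises and below in 83 of the 100 largest falls. The correlations at EB day 2 were 0.26 (Pearson) and 0.29 (Spearman), with EB day 2 itself part of the change on the x axis. Genes are not independent replicates and no p is given. Replicate 2 also had fewer reads, and the part of either fact in the results above was not tested.

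**Figure D5:**
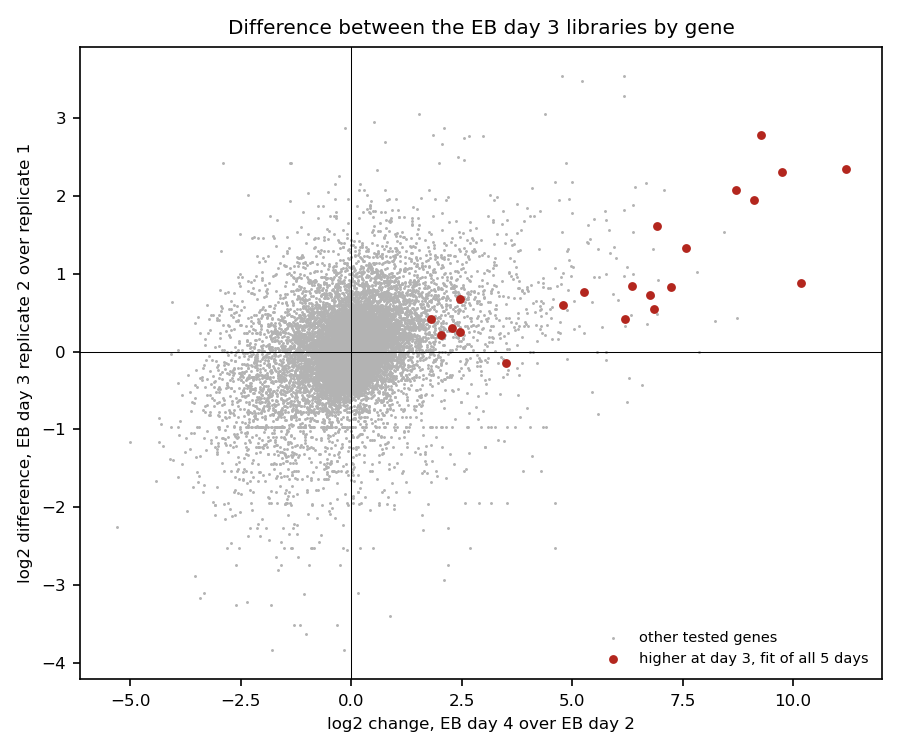
Each point is 1 of the 15841 genes tested; the x axis is the log2 change of EB day 4 over EB day 2 and the y axis the log2 difference of EB day 3 replicate 2 over replicate 1. Red points, the 21 genes called higher at EB day 3, lie above 0 on the y axis in 20 of 21 cases.

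Set among its neighbours in the 5-day fit, the third day had few calls. The step to EB day 1 had 277 genes higher and 246 lower, the step to EB day 2 had 25 and 69, the step to EB day 3 had 21 and 0, and the step to EB day 4 had 366 and 98. Neighbouring steps share libraries. A test of the step to EB day 3 minus the step to EB day 2 found 0 genes by limma and 0 by edgeR after adjustment and 41 by DESeq2, with 328 higher and 394 lower at an unadjusted limma p under 0.05. The step to EB day 4 minus the step to EB day 3 was higher for 6 genes (0.0379%) and lower for 0 by limma. At an unadjusted p under 0.05 limma counted 532 and 142, and after adjustment edgeR found 1 gene and DESeq2 116. Leaving out any single library gave 0 of these genes, except 2 without EB day 3 replicate 2 and 54 without either ES day 0 library.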

How the data were processed

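RNA-seq libraries of the E14 time course were compared, 2 per day on 5 days, with EB day 3 against EB day 2 as the comparison of interest. Per the labels, RNA of high integrity went into TruSeq RNA v2 libraries that were sequenced with paired ends. The submitters' processing notes list the build mm9 and, among tools, HTSeq 0.5.4, SAMtools 0.1.19, DESeq2, FastQC 0.11.3 and Bowtie2, with no role or order given. The table deposited by the authors holds a signal per gene symbol, namely reads scaled by a single factor for each library. All values (100%) were whole multiples of the library's smallest step within 1e-06, and the factors matched size factors recomputed by the median of ratios (ratio 1). Recovered reads were 20104644 to 39835808 per library.

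Genes were filtered with filterByExpr of edgeR 4.0.16 on those reads, and log2(signal + 1) was fitted in R 4.3.3 by limma 3.58.1, using an intensity trend and day as a factor, with 5 residual and 4.98 prior degrees of freedom. Fold changes are on this scale, which understates the change of low genes. Adjusted p-values are Benjamini-Hochberg over all genes tested. The signal is not a raw count, so edgeR's quasi-likelihood test and DESeq2 1.42.0 on recovered reads are alternatives. TruSeq RNA v2 does not mark strand, so reads of overlapping or antisense genes cannot be told apart. The steps were tested on simulated data. Same-numbered libraries were checked for pairing, and their deviations correlated at 0.351 between EB days 2 and 3. No pairing was used in the main fit.

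The comparison, the 34 gene lists (556 genes, 512 tested, 37 in more than 1 list) and the rule for named genes were chosen with earlier results of these data known. The rule takes the 12 largest called changes and the 5 smallest p-values in each direction. The largest changes had to show no overlap between the days and a mean of at least 10 CPM on the higher day. The rule also takes called list members, up to 3 uncalled members per list and a fixed set of genes. Genes named outside it, such as Apln, Wnt8a and list members called only in the EB-only fit, were chosen after their values were seen. The ChIP-seq samples and the genotype libraries were not used here.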

Additional observations from a re-analysis of the deposited data

Results flagged for a closer look

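For 6 genes the step from EB day 3 to EB day 4 differed from the step from EB day 2 to EB day 3 by the test of the difference itself, in the limma fit of all 5 days, and in each the step to EB day 4 was the higher. The difference of the steps was 6.41 on the log2 scale for Nrp1, a receptor of semaphorins and VEGF, 5.85 for Gata4, a zinc finger factor of heart and endoderm, and 5.79 for Fgf3, a growth factor. It was 3.82 for Kitl, the ligand of the Kit receptor, 3.47 for Fn1, the matrix protein fibronectin, and 3.42 for Phlda2, an imprinted gene. The adjusted p was 0.0440 for Gata4 and 0.0454 for the other 5. None of the 6 was called over the third day. Gata4 had 89.1 and 96.0 scaled counts at EB day 2, 58.2 and 114 at EB day 3, and 4193 and 4189 at EB day 4. Fn1 had 14906 and 13669 at EB day 2, 9245 and 15982 at EB day 3, and 120135 and 109717 at EB day 4. The steps share the EB day 3 libraries, which the contrast takes into account.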

How the results depend on the processing

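The main counts were 21 genes higher, 0 lower, 0 for the step to EB day 3 minus the step before, 6 for the step to EB day 4 minus the step to EB day 3, and 13 called list members. TMM scaling left all of these as they were. DESeq2 gave 173 higher, 142 lower, 41 and 116 for the differences of steps, and 61 list members. edgeR gave 1 gene for the step to EB day 4 minus the step to EB day 3. With a pseudocount of 5 that count was 11, without a filter and with a mean of at least 5 CPM it was 0, and the 5 CPM minimum left 8 called list members. A pseudocount of 0.5 and no filter each gave 1 gene lower. The fit of EB days 1 to 4 gave 117 higher, 95 lower, 55 for the step to EB day 4 and 46 list members, and that of EB days 2 and 3 alone 136, 129 and 57 list members. edgeR on those 4 libraries, an alternative added after seeing the data, gave 121 higher, 102 lower and 52 list members, and DESeq2 on them, also added, 566, 478 and 123. With the replicate number as a block, 16 genes were higher, of which 15 were among the 21 (Evx1, Sp5, Aplnr, Rhoj, Samd3 and Sh3pxd2a were not), 3 were lower, 0 differed between the steps to EB day 4 and EB day 3, and 11 list members were called. Deviations of same-numbered libraries correlated at 0.286, 0.161 and 0.351 for the pairs among EB days 1, 2 and 3 but at -0.190 to 0.0441 for pairs with ES day 0 or EB day 4. The pair compared here, EB days 2 and 3, had the highest of these, 0.351. The main fit was planned without a block. Whether same-numbered libraries of these days belong together is not stated. Leaving out 1 library gave 1 to 114 genes higher, 0 to 104 lower, 0 to 54 for the step to EB day 4 and 1 to 49 list members; those that leave out a library of ES day 0, EB day 1 or EB day 4 were added after seeing the data. Where a day keeps 1 library, it is assumed to vary like the others. The cause of these shifts was not tested. Of the named genes, Sox1 and Cdkn1a, called in no limma fit, changed sign, Sox1 to a log2 fold change of 0.80 without EB day 3 replicate 1 and Cdkn1a to -0.26 without EB day 3 replicate 1 and -0.02 without EB day 2 replicate 1, and the other genes under the naming rule kept their direction in the alternatives run. List medians that changed sign under some alternative were all within 0.29 of 0, and without EB day 3 replicate 2 that of FGF genes was -0.36 and that of BMP genes -0.23. The median of all genes stayed between -0.0171 and 0.00810. In simulated data for EB day 3 over EB day 2 on 15841 genes, the 5-day fit called 29.9% of the genes changed by 2-fold. It called 98.5% of those changed by 8-fold, and 12 unchanged genes as well. Many changes of 2-fold were thus missed in such data. The simulation gave a gene the same dispersion on every day, estimated over all days together. The wider spread of ES day 0 was therefore shared among the days and not kept to that day. Changed genes were drawn only above a minimum mean at EB day 2. The shares found therefore do not cover genes as low there as Mesp1 or Cer1.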
